A study of Homo sapiens with 4 samples.

Results

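Claudins and the genes that build and regulate tight junctions were followed in OE33 cells given a miR-223 precursor. OE33 is an established human cell line of esophageal adenocarcinoma. The set held every array probe whose deposited gene name was a claudin (CLDN with a number) and those of 16 named junction, polarity and epithelial genes. On the array these were 65 of 47321 probes, for 22 claudins and 15 of the 16 other genes. The sixteenth, ESRP1, is carried on the array under its older name RBM35A, so the naming rule does not take it, and it is given separately. Of the 37 member genes, 24 had a probe detected well enough to be tested and 13 did not.

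In the miR-223 group, cells had been transfected with a hsa-miR-223 precursor at 10 nM. In the control group, OE33 cells had received a negative control precursor at 10 nM. All cells were harvested at 24 h, and total RNA was read on Illumina HumanHT-12 v4 bead arrays, 2 a group, from what the labels call biological replicate experiments. All 4 arrays were of 1 cell line, and both groups carried transfection reagent and a precursor, so no array of untreated cells enters the comparison.

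Tight junctions seal the space between neighbouring epithelial cells near their apical border. Claudins are four-pass membrane proteins whose strands form the seal or, for some of them, ion-selective pores through it. Occludin and the related MARVEL proteins lie in the same strands, cytoplasmic scaffolds such as ZO-1 tie the strands to actin, and the Crumbs and Par proteins set where along the cell side the junction forms. MicroRNAs such as miR-223 lower messenger RNAs that pair with their seed, bases 2 to 8. RefSeq lists a 5p and a 3p mature strand of hsa-miR-223, and the labels name only the precursor that separates the groups. The 3p strand is shown, with the seed in capitals (RefSeq, GRCh38.p14, chrX:66018937-66018958, plus strand).
hsa-miR-223-3p: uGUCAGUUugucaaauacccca
No transcript ends were used here, so pairing of this seed with the member genes was not examined.

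The median raw signal per array was between 114.5 and 118.4 intensity units, and between 18036 and 18916 probes were detected (p under 0.05 against negative control beads). The tested member signals rested on 7 to 38 beads a probe and array. All 8 columnar epithelial markers (EPCAM, KRT8, KRT18, KRT19, KRT7, CDH1, MUC1 and ELF3) were detected on all 4 arrays. Of 8 squamous markers, KRT13 and KRT14 were detected on all 4 arrays and KRT5, KRT4, TP63, IVL and DSG3 on 0, with SPRR3 on 3. The summed linear signal of the list was 2461 and 2789 in miR-223 cells, against 1988 and 2006 in control cells, nearly all of it from KRT13. The log2 differences were 0.41 ± 0.22 (SE) for KRT13, 0.11 ± 0.27 (SE) for KRT14 and -0.19 ± 0.24 (SE) for SPRR3, and their part in the differences below was not tested. Of 12 mesenchymal markers, VIM and SNAI2 were detected on all 4 arrays and CDH2, ZEB1, ZEB2, SNAI1 and DCN on 0. The sums were 323.2 and 234.2 in miR-223 cells and 386.7 and 302.0 in control cells, which overlap. Taken singly, VIM differed by -0.51 ± 0.27 (SE) and SNAI2 by -0.46 ± 0.25 (SE). Neither gene had overlapping groups, and both 95% intervals crossed 0. TWIST1 went the other way, at 0.39 ± 0.22 (SE). It was detected on both miR-223 arrays and on 0 control arrays, so its sign was set by the detection rule. What these markers contribute to the differences below was not tested. Among leukocyte markers, CD14, LYZ and CD68 were detected on all 4 arrays and PTPRC and CD3E on 0, and all 4 endothelial markers were at 0. Outside the set, STMN1 had a log2 difference of -1.47 ± 0.23 (SE) and PARP1 of -1.36 ± 0.22 (SE), which did not pass the adjusted test. The number of arrays limits the precision of every value.

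Which claudins these cells express was read from the detection p-values. Among the claudins, 10 had a tested probe, which needed detection on at least 2 of the 4 arrays: CLDN1, CLDN3, CLDN4, CLDN7, CLDN8, CLDN9, CLDN12, CLDN14, CLDN15 and CLDN23. On their best-detected probe, all of these except CLDN8 were detected on all 4 arrays, and CLDN8 was detected on 3. A further probe each of CLDN8, CLDN9, CLDN14 and CLDN15 was detected on 0 arrays, so the probes of these genes disagreed. The other 12 claudins were not tested. CLDN11, a claudin of myelin and Sertoli cells, was detected on 1 array, miR-223 replicate 2. The remaining 11 were detected on 0 arrays: CLDN2 and CLDN10, which form cation or anion pores, CLDN5 of endothelium, CLDN6 of embryonic epithelia, CLDN16 and CLDN19 of the kidney, CLDN17, CLDN18, CLDN20, CLDN22 and CLDN24. CLDN18, known for its stomach and lung forms, was not above background on any of its 4 probes. Probes of the 13 untested members had raw signals of 91.3 to 134.8, against array medians of 114.5 to 118.4, so a low level of these genes was not detectable on these arrays. Levels of different probes cannot be ranked against each other, because probes differ in how well they bind.

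**Figure D1:**
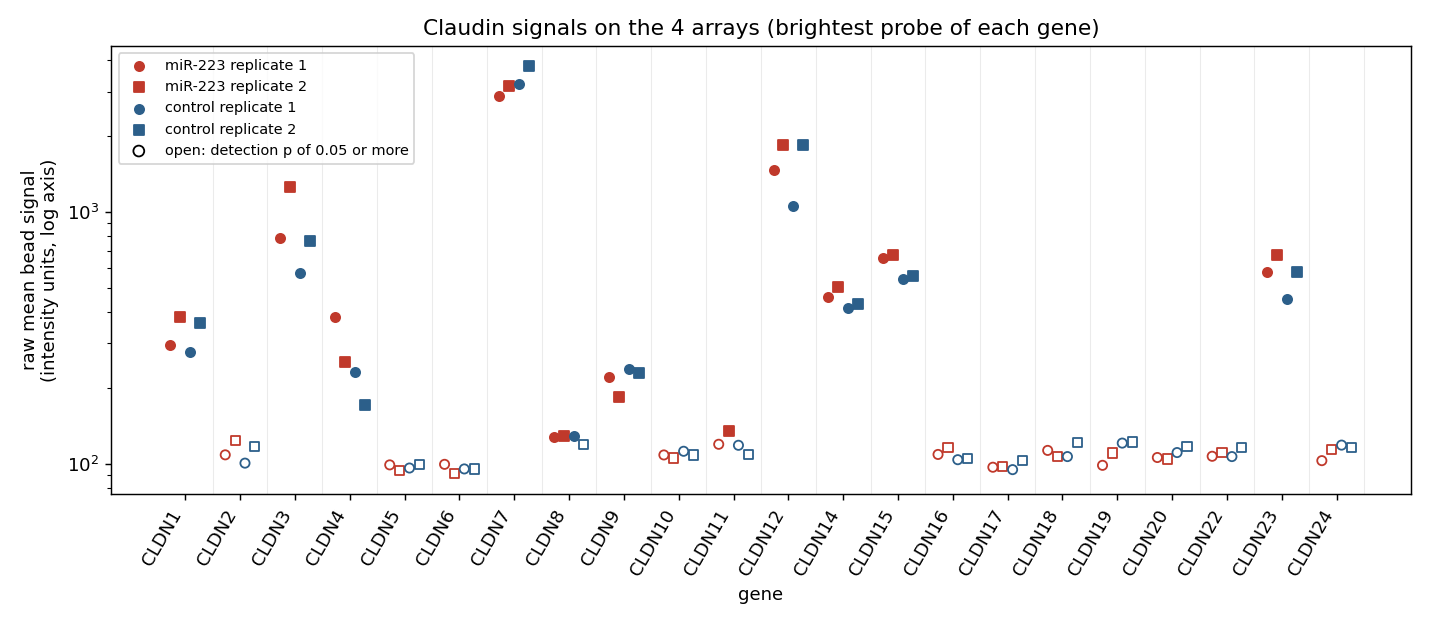
Raw mean bead signal (intensity units, log axis) of the 22 claudins on each array, with the brightest probe of each gene, miR-223 arrays in red and control arrays in blue, circles for replicate 1 and squares for replicate 2. Filled symbols have a detection p under 0.05, and 12 claudins lie at background with all or nearly all symbols open.

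After background correction, quantile normalization and log2, the miR-223 arrays were compared with the control arrays in limma. The largest differences among the members were positive and belonged to CLDN4 and CLDN3, barrier-forming claudins of many simple epithelia. CLDN4 (probe ILMN_2132458) had log2 intensities of 8.28 and 7.23 in miR-223 cells, against 7.25 and 6.16 in control cells. The second miR-223 array lay just below the first control array, so the groups overlapped. The raw signals of CLDN4 were 383.5 and 252.4 in miR-223 cells and 230.7 and 171.4 in control cells, against array medians of 114.5 to 118.4. The difference was 1.05 ± 0.43 (SE, n = 2 each), a 2.07-fold higher mean in miR-223 cells, with a 95% interval of 0.060 to 2.04 and a limma adjusted p = 0.910. That was the lowest adjusted p of any tested probe in this fit, but other probes shared it, among them those of STMN1 and PARP1. Their limma p-values before adjustment were 0.00017 and 0.00022, against 0.040 for CLDN4, so CLDN4 was not the top probe. Between replicate 2 and replicate 1, averaged over the groups, CLDN4 differed by -1.07, as much as between the groups. Within number 1 and within number 2 the miR-223 array was the higher, by 1.03 and 1.07. The labels do not say that equal numbers mark a shared experiment. Without background correction the CLDN4 difference was 0.64, and the authors' deposited table also gives a log2 fold change of 0.64. The lowest of the 4 values, that of control replicate 2, rested on 7 beads, the fewest of any tested member. With 1 array left out the difference was 0.52 without miR-223 replicate 1, 0.50 without control replicate 2, 1.58 without miR-223 replicate 2 and 1.60 without control replicate 1.

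CLDN3 (probe ILMN_1723042) had log2 intensities of 9.51 and 10.12 in miR-223 cells, against 9.02 and 9.27 in control cells. Both miR-223 arrays lay above both control arrays. The difference was 0.66 ± 0.27 (SE, n = 2 each), 1.59-fold, with a 95% interval of 0.047 to 1.28 and a limma adjusted p = 0.910. It was 0.36 without miR-223 replicate 2, and the authors' deposited table gives 0.59. In this fit CLDN4 and CLDN3 passed 0.05 before adjustment and not after. The CLDN4 call before adjustment was lost with no filter on dim probes, without miR-223 replicate 1 and without control replicate 2, and the CLDN3 call without miR-223 replicate 2 and without control replicate 1. Their replicates differed in opposite directions, since CLDN3 was 0.43 higher in replicate 2 than in replicate 1.

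CLDN3 and CLDN4 are neighbouring protein-coding genes on chromosome 7, on opposite strands. The 250 bases before each start (RefSeq, GRCh38.p14) are shown because these neighbours had the 2 largest differences. Capitals mark the GC box, GGGCGG or its reverse complement CCGCCC, a motif bound by SP and KLF factors.
CLDN3 (chr7:73770271-73770520, minus strand): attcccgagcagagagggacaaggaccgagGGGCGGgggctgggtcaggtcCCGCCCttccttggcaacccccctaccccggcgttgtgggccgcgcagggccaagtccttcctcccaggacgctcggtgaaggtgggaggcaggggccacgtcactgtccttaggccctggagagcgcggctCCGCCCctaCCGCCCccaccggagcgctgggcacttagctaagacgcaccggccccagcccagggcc
CLDN4 (chr7:73830746-73830995, plus strand): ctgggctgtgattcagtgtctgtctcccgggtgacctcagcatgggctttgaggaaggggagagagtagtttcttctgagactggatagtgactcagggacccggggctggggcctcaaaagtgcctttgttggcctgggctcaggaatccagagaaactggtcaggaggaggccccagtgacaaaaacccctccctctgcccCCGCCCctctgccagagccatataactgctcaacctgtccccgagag
The CLDN3 stretch held 4 GC boxes, beginning 220, 199, 67 and 58 bases before the start, and the CLDN4 stretch held 1, beginning 47 bases before it. Promoters were at hand for 25 of the 37 members, and 15 of the 25 held a GC box on either strand, against 42.3% of 27305 promoters of the same length. The E-box CAGGTG or CACCTG, a motif of SNAI and ZEB repressors, was found in 4 of the 25 (CLDN18, CRB3, OCLN and TJP1) and in 17.5% of all. CCAAT or its reverse complement was found in 12 of the 25 and in 33.0% of all, and TATAAA or its reverse complement in 1 of the 25 and in 11.1% of all. The palindrome AACCGGTT, the consensus of grainyhead-like factors, was in 0 of the 25 and in 0.106% of all promoters. These are matches of letters and not evidence of binding.

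The other 8 tested claudins had smaller differences, from -0.36 to 0.35. CLDN23 had 9.01 and 9.11 in miR-223 cells, against 8.62 and 8.80 in control cells, a difference of 0.35 ± 0.22 (SE) with an interval of -0.15 to 0.85. CLDN15, a cation-pore claudin of the intestine, had 9.22 and 9.11 in miR-223 cells, against 8.93 and 8.73 in control cells (0.33 ± 0.22, SE), and its dimmer probe stood at -0.17. CLDN14, a sealing claudin of the inner ear and kidney, had 8.61 and 8.60 in miR-223 cells, against 8.46 and 8.26 in control cells (0.24 ± 0.22, SE). Its dimmer probe had the opposite sign, at -0.39 ± 0.25 (SE), and the mean of the 2 probes was -0.076. For these 3 genes both miR-223 arrays lay above both control arrays on the brighter probe.

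CLDN12, which lacks the C-terminal PDZ-binding motif of most claudins, had 10.49 and 10.69 in miR-223 cells, against 10.00 and 10.69 in control cells. Its difference was 0.25 ± 0.28 (SE), and -0.096 without control replicate 1. CLDN1, a barrier claudin of skin and many other epithelia, had 7.79 and 8.08 in miR-223 cells, against 7.67 and 7.93 in control cells (0.14 ± 0.23, SE). The groups overlapped for both genes. CLDN8, a claudin of kidney collecting duct and colon, was dim at 5.30 and 5.15 in miR-223 cells, against 5.28 and 4.81 in control cells (0.18 ± 0.25, SE).

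CLDN7 and CLDN9 had negative differences. CLDN7, a basolateral claudin that binds EPCAM, had 11.52 and 11.47 in miR-223 cells, against 11.70 and 11.77 in control cells. The groups did not overlap, with miR-223 cells lower at -0.24 ± 0.21 (SE, interval -0.73 to 0.26). Its partner EPCAM stood at -0.12 ± 0.21 (SE). CLDN9 had 7.12 and 6.43 in miR-223 cells, against 7.32 and 6.95 in control cells, an overlap with a difference of -0.36 ± 0.29 (SE). Without miR-223 replicate 2, CLDN9 stood at -0.016, and without miR-223 replicate 1 at -0.70.

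**Figure D2:**
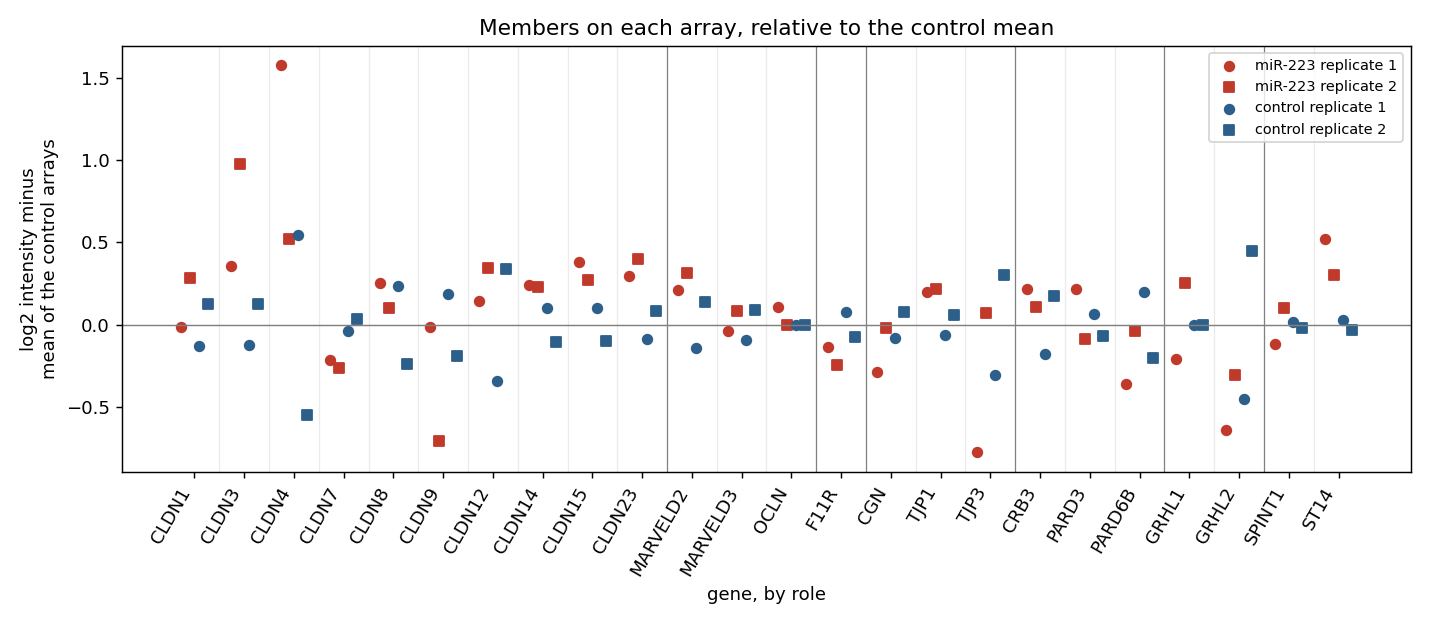
Log2 intensity of the 24 tested members on each array, minus the mean of the 2 control arrays of that gene, miR-223 arrays in red and control arrays in blue, circles for replicate 1 and squares for replicate 2, with grey lines between roles. CLDN3 shows both red symbols above both blue ones, and CLDN4 shows red above blue within each symbol shape while the second miR-223 array meets the first control array.

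Among the 10 tested claudins, 8 had a positive and 2 a negative difference, with a median of 0.24, against a median of 7.0e-05 over 14334 tested genes. Of the 8, CLDN1, CLDN8 and CLDN12 changed sign in a fit with 1 array left out, and CLDN14 with its tested probes averaged. The members were chosen with earlier results of these data known, so these counts are descriptive only. With the other members included, 16 of 24 were positive and the median was 0.10, where 50% of all genes were positive. Of the 24 members, 0 passed limma at an adjusted p under 0.05, where 0% of all genes passed; at an unadjusted p under 0.05, 2 members were higher, CLDN3 and CLDN4, against 2.58% of all genes, and 0 were lower, against 2.85%. Both miR-223 arrays lay above both control arrays for 7 members, against 16.3% of all genes, and below both for 2 members, against 17.2%. The 7 were CLDN3, CLDN14, CLDN15, CLDN23, MARVELD2, TJP1 and ST14, and the 2 were CLDN7 and F11R. These counts used the brightest probe of a gene, and the dimmer CLDN14 probe was apart in the other direction. For 13 of 24 members the difference between replicate numbers was larger than that between groups, and over all genes this held for 55.1%. With 2 arrays a group, the median SE of a member was 0.23, and p-values measure only the spread between these arrays.

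The MARVEL proteins, which join claudins in the strands, had differences of 0.025 to 0.26 on their brightest probes. OCLN, which encodes occludin, had 5.63 and 5.52 in miR-223 cells, against 5.52 and 5.52 in control cells. This dim probe gave a difference of 0.056 ± 0.22 (SE), with an interval of -0.44 to 0.55. OCLN had 4 probes, of which only this 1 was tested. Of the others, ILMN_1724149 and ILMN_2255088 were detected on 0 arrays and ILMN_1651916 on 1, miR-223 replicate 2. MARVELD2, which encodes tricellulin of three-cell corners, had 9.15 and 9.26 in miR-223 cells, against 8.80 and 9.08 in control cells. Both miR-223 arrays were higher, at 0.26 ± 0.23 (SE), and its 2 dimmer probes stood at 0.43 and 0.63. These dimmer probes lay near background, with raw signals of 122.3 to 161.1, and the probe at 0.63 was not detected on control replicate 2. MARVELD3 was at 0.025 ± 0.22 (SE) on its brightest probe and at -0.024 on another. Its remaining probe gave 0.53 ± 0.21 (SE), with 7.15 and 7.21 in miR-223 cells and 6.67 and 6.62 in control cells (limma adjusted p = 0.910), so the probes of MARVELD3 disagreed.

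Among scaffolds, TJP1, which encodes ZO-1, had positive differences on both of its probes. The brighter had 10.97 and 10.99 in miR-223 cells, against 10.71 and 10.84 in control cells, a difference of 0.21 ± 0.22 (SE). The other had 10.21 and 10.22 in miR-223 cells, against 9.79 and 9.59 in control cells, a difference of 0.53 ± 0.22 (SE), with a limma adjusted p = 0.910. On both probes the groups did not overlap. TJP3, which encodes ZO-3, had 6.64 and 7.48 in miR-223 cells, against 7.11 and 7.71 in control cells, a difference of -0.35 ± 0.33 (SE) beside a difference of 0.73 between replicate 2 and replicate 1. CGN, which encodes the scaffold cingulin, stood at -0.15 ± 0.23 (SE), with 10.58 and 10.85 in miR-223 cells and 10.79 and 10.95 in control cells. The groups overlapped for TJP3 and CGN.

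F11R encodes JAM-A, an immunoglobulin-domain adhesion molecule of the junction. It had 10.32 and 10.20 in miR-223 cells, against 10.53 and 10.37 in control cells, a difference of -0.19 ± 0.22 (SE), and its other tested probe stood at -0.18. The polarity genes overlapped between groups on their brightest probes. CRB3, the epithelial Crumbs protein, stood at 0.16 ± 0.23 (SE), with 9.19 and 9.08 in miR-223 cells and 8.80 and 9.15 in control cells. A second CRB3 probe stood at 0.27. The dimmest was above background on both miR-223 arrays and on neither control array (measured means 5.38 and, in control cells, 4.68, limma adjusted p = 0.910). It entered the test through the group where it is high, so its sign was set by the filter and is not read as a difference. PARD3, the central Par scaffold, had 6.63 and 6.32 in miR-223 cells, against 6.48 and 6.34 in control cells (0.067 ± 0.23, SE). PARD6B, its partner that binds atypical protein kinase C, had 6.24 and 6.56 in miR-223 cells, against 6.80 and 6.40 in control cells (-0.20 ± 0.25, SE).

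The epithelial regulators gave no difference past the threshold before adjustment. GRHL2, a grainyhead-like transcription factor that maintains epithelial genes, had 5.28 and 5.61 in miR-223 cells, against 5.47 and 6.37 in control cells. This dim probe stood at -0.47 ± 0.32 (SE), the lowest value of the set, and at -0.19 without background correction. With 1 array left out it ranged from -0.92 without control replicate 1 to -0.026 without control replicate 2. GRHL1, a relative, had 5.39 and 5.85 in miR-223 cells, against 5.59 and 5.59 in control cells, and differed by 0.023 ± 0.24 (SE), with its dimmer probe at 0.34. ESRP2, a splicing factor of epithelial transcripts, had 1 probe and was detected on 0 arrays. Its relative ESRP1, measured under the name RBM35A, was detected on all 4 arrays, with 5.68 and 6.63 in miR-223 cells and 6.44 and 6.14 in control cells, a difference of -0.13 ± 0.33 (SE) with the arrays of both groups interleaved.

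ST14 encodes matriptase, a membrane serine protease of epithelia, and SPINT1 encodes its inhibitor HAI-1. ST14 had 11.18 and 10.97 in miR-223 cells, against 10.69 and 10.63 in control cells. Both miR-223 arrays lay above both control arrays, and the difference was 0.41 ± 0.22 (SE, interval -0.092 to 0.92; limma adjusted p = 0.937). SPINT1 had 8.47 and 8.69 in miR-223 cells, against 8.61 and 8.57 in control cells, a difference of -0.0076 ± 0.22 (SE), and its dimmer probe stood at 0.27. The difference between ST14 and SPINT1 was not tested.

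**Figure D3:**
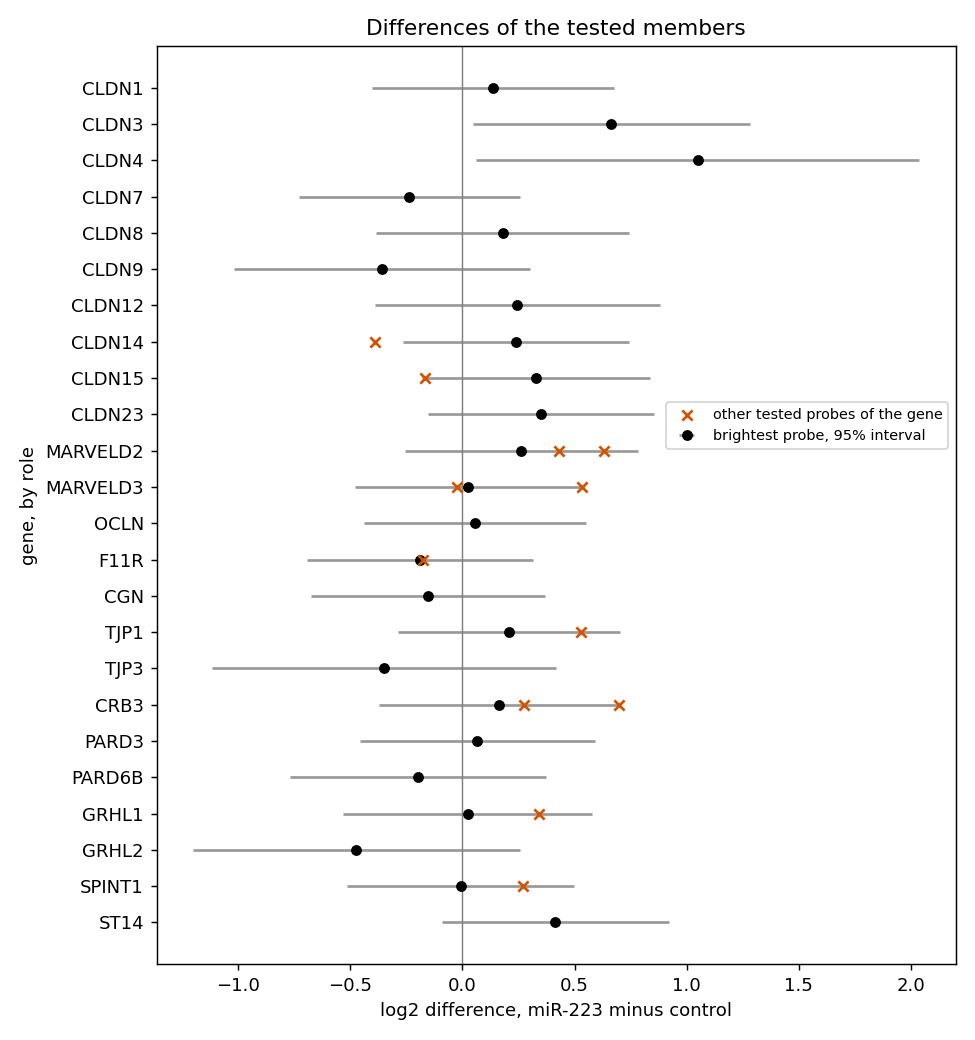
Log2 difference, miR-223 minus control, of the 24 tested members by role, with black points for the brightest probe of each gene, bars for the 95% interval and crosses for other tested probes. The bars of CLDN3 and CLDN4 lie above 0 and all others cross it, and the crosses of CLDN14 and CLDN15 fall on the other side of 0 from their points.

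Of the members, 9 had several tested probes, and for CLDN14, CLDN15, MARVELD3 and SPINT1 these had opposite signs. Counted by probe, 24 of 36 tested member probes had a positive difference, against 50.5% of all probes, and 5 were higher at an unadjusted limma p under 0.05, against 2.67% of all probes, with 0 lower, against 2.78%. The 5 were the CLDN3 and CLDN4 probes and 1 each of CRB3, MARVELD3 and TJP1. The CRB3 probe was detected on miR-223 arrays alone and entered the test through the group where it is high. Its call and sign were thus set by the filter, which leaves 4 calls. It is also among the 24 positive differences, where its sign carries no information. Probes of 1 gene share its transcripts and are not independent of each other.

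A further list of 52 tight junction, polarity and membrane protease genes outside the naming rule had 35 tested members. Of these, 18 had a positive and 17 a negative difference, with a median of 0.020, and 0 passed limma after adjustment. At an unadjusted p under 0.05, 0 were higher, against 2.58% of all genes, and 2 were lower, PALS1 and RAB13, against 2.85%. PALS1, the adaptor that joins Crumbs proteins to PATJ and is listed on the array as MPP5, had 7.79 and 7.91 in miR-223 cells, against 8.62 and 8.79 in control cells. The groups were far apart relative to their spread, at -0.86 ± 0.22 (SE, interval -1.36 to -0.35; limma adjusted p = 0.910), and the value was -0.66 without background correction. RAB13, a small GTPase of junction trafficking, had 7.59 and 8.16 in miR-223 cells, against 8.45 and 8.56 in control cells, a difference of -0.63 ± 0.26 (SE; limma adjusted p = 0.910), and -0.35 without miR-223 replicate 1. PATJ, the partner of PALS1, stood at -0.093 ± 0.30 (SE), and CRB3 at the value above.

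**Figure D4:**
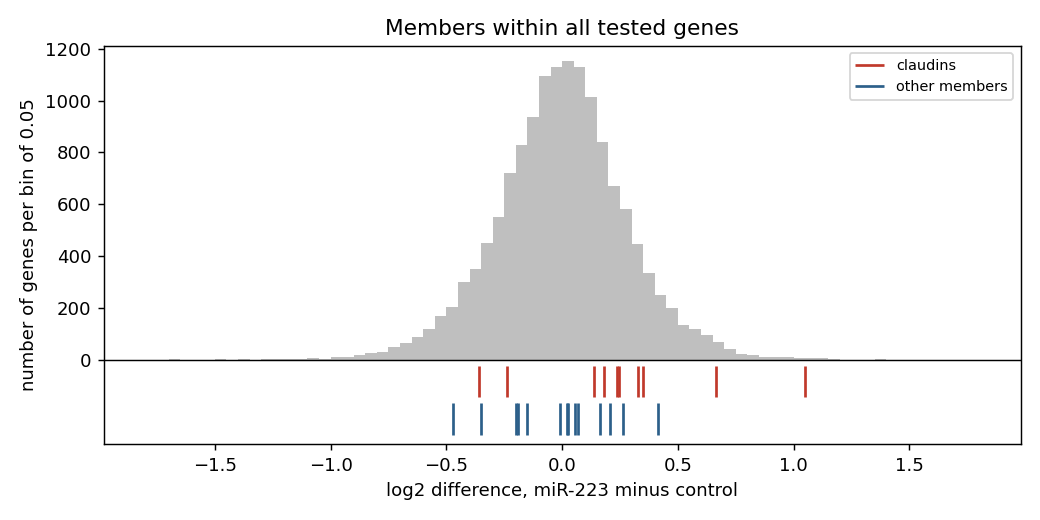
Number of genes per bin of log2 difference, miR-223 minus control, over 14334 tested genes in grey, with red ticks for the 10 tested claudins and blue ticks for the 14 other tested members. CLDN4 at 1.05 and CLDN3 at 0.66 lie in the right tail, and the other members lie between -0.47 and 0.41.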

How the data were processed

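Amplified, biotin-labelled RNA was hybridized to bead arrays, per the labels' protocols. The authors deposited, per the file headers, each probe's mean bead signal as a linear intensity, its bead standard error (also a signal in intensity units), a bead number and a detection p-value. The deposited value table holds intensity values whose sorted columns differ by at most 0.228%, so the authors quantile normalized them, and another deposited table, by gene, gives log2 values, a log2 fold change and a signed linear fold score. The submitters' processing notes name GenomeStudio, BeadStudio and Partek without saying which step each ran.

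Bead signals were corrected by normexp on controls inferred from the detection p-values (offset 16), taken to log2 and quantile normalized (limma 3.58.1, R 4.3.3). Probes with detection p under 0.05 on at least 2 of 4 arrays, 18629 of 47321, were tested with lmFit and eBayes, group as the only term, two-sided, Benjamini-Hochberg over all tested probes at 0.05. Differences are miR-223 minus control. Correction with an offset changes the differences of dim probes most. The probe with the highest mean stands for a gene. The test was also run on simulated arrays drawn independently of each other. That run cannot cover variation shared by arrays of the same number.

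Every member with a tested probe is named, as are other junction genes at an unadjusted p under 0.05. Members, lists and rules were chosen with earlier results of these data known. Alternatives covered background, normalization, filter, variance model, replicate block, probe rule and leaving out each array. For other genes, names were updated through RefSeq symbols and synonyms.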

Additional observations from a re-analysis of the deposited data

How the results depend on the processing

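At an adjusted p under 0.05, 0 members passed limma in every setting except the replicate block with a robust variance trend, where 2 passed, CLDN4 (adjusted p = 0.0118) and CLDN3 (adjusted p = 0.0452), among 176 probes in all. Of the other junction genes 1 passed there, PALS1 (adjusted p = 0.0179). The labels do not say that arrays with the same number shared an experiment. The correlation between the deviations of arrays sharing a number was 0.352 over tested probes, and within number 1 and number 2 CLDN4 differed by 1.03 and 1.07 and CLDN3 by 0.48 and 0.85. Arrays sharing a number correlated at 0.9866 (number 1) and 0.9875 (number 2). Arrays sharing a group correlated at 0.9841 (miR-223) and 0.9834 (control). The replicate block alone called 0 members and 0 probes. A blocked fit leaves 1 residual degree of freedom. At an unadjusted p under 0.05, the block gave 1925 probes and, with the trend, 2158 probes and 4 members, against 1015 probes and 2 members without it. With no filter on dim probes 2602 probes were counted, because more probes were tested. Leaving out 1 array gave 829 to 1001 probes and 1 to 2 members at an unadjusted p under 0.05, and 0 to 1 probes and 0 members after adjustment.

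The median of the members was 0.10. It was 0.048 without background correction and 0.048 on the authors' values, 0.067 with detection on all 4 arrays and 0.067 with detection p under 0.01, where 23 members stayed in, 0.13 with all tested probes of a gene averaged, and 0.017 to 0.13 with 1 array left out. The median of the other junction genes was 0.020, and -0.0027 with detection on all 4 arrays, -0.026 with detection p under 0.01, and -0.088 to 0.095 with 1 array left out. The cause of these shifts was not tested. In all, 13 of 24 members kept their sign in every setting run, among them CLDN3, CLDN4, CLDN7, TJP1 and ST14. SPINT1 turned to 0.026 under median scaling and 0.13 with probes averaged, and CLDN14 to -0.076 with probes averaged, because its probes disagree. With 1 array left out, signs changed for 10 members, whose ranges were -0.012 to 0.28 for CLDN1, -0.096 to 0.59 for CLDN12, -0.059 to 0.42 for CLDN8, -0.012 to 0.34 for CRB3, -0.21 to 0.25 for GRHL1, -0.064 to 0.11 for MARVELD3, -0.086 to 0.22 for PARD3, -0.40 to 0.0034 for PARD6B, -0.12 to 0.10 for SPINT1 and -0.77 to 0.073 for TJP3. The count of members with both miR-223 arrays above both control arrays was 7 under each of the other normalizations, a check added after seeing the data. Having 2 arrays a group and signals near background for OCLN, GRHL1, GRHL2 and CLDN8 limit what could be detected.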
